A study of Caenorhabditis elegans with 16 samples.

Results

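Chromosome V of the nematode Caenorhabditis elegans was described here by its small RNA reads, counted in 210 consecutive windows of 100 kb (bins) out of 1006 bins over the whole genome. Every bin that the genome table places on chromosome V was taken. The left arm was set as the 60 bins that start at or below position 6000000 of the ce11 genome, the centre as the 90 bins that start above it up to position 15000000, and the right arm as the 60 bins beyond. The choice used positions alone and no measured value. Reads came from 16 small RNA libraries of whole adult males: a prg-1 null mutant (n = 5), a prg-1 RNase mutant (n = 3), called RNase dead in the design text, a prg-1 mutant that lacks the PAZ domain (ΔPAZ, n = 3), and wild type (n = 5). No other allele or treatment is named for any genotype, and each sample pooled 20 to 30 males raised at 25 °C and taken 24 hours after the mid-L4 stage. Small RNA was treated with a pyrophosphatase, so that molecules with a 5′ triphosphate could be cloned as well. The design text counts 3 wild type and 4 null samples, and the labels name 5 of each. Nothing in the labels ties the replicates to cultures of their own, and the p-values then cover only how far these samples spread, part of which may be technical.

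PRG-1 is the worm's Piwi Argonaute, which binds 21U-RNAs, the piRNAs of this species, and most 21U-RNA genes lie on another chromosome, chromosome IV. Many other worm small RNAs are 22G-RNAs, made on target transcripts by RNA-dependent RNA polymerases and bearing the 5′ triphosphate, alongside 26G-RNAs and microRNAs. Worm autosomes are holocentric, with gene-dense conserved centres and arms rich in repeats and in fast-evolving families. Chromosome V is known for its many chemoreceptor genes, which encode the receptors of sensory neurons, and for the tandem array that encodes 5S ribosomal RNA and the SL1 spliced leader.

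Depth was 396813 to 2288967 genome-mapped reads per library, lowest in ΔPAZ replicates 1 and 2, and 1 read was worth 0.437 to 2.52 reads per 1000000 genome-mapped reads (RPM). Between them the genotypes differed in the percentage of sequenced reads placed on the genome, which was 62.1 to 82.3% in the null, 70.3 to 77.5% in the RNase mutant and 41.8 to 51.6% in ΔPAZ, against 39.8 to 68.3% in wild type. Its part in the results was not tested. Reads counted by the authors as 21U only set the null alone apart, at 2.64 to 17.0 RPM, against 484 to 2207 RPM in wild type. They were at 734 to 1267 RPM in the RNase mutant and 375 to 1060 RPM in ΔPAZ. Both overlapped wild type, so these reads do not tell the 2 labels from it. The bins of 9 microRNAs that mark neurons, muscle, germline and developmental timing held reads in every library, at 31.7 RPM or more. Some of these bins differed by genotype. The let-7 bin on chromosome X held 3109 to 3976 RPM in the RNase mutant, against 475 to 902 RPM in wild type (log2 fold change 2.40, edgeR adjusted p = 1.42e-05). The mir-71 bin held 3553 to 3735 RPM in the RNase mutant, against 696 to 2699 RPM in wild type (log2 fold change 1.10, edgeR adjusted p = 0.0218). The part of this in the results was not tested. Replicates 4 and 5 of the null and of wild type stood apart on this chromosome. Chromosome V took 15.3 and 15.0% of reads in null replicates 4 and 5, against 7.41 to 8.33% in null replicates 1 to 3. In wild type it took 24.4 and 14.4% in replicates 4 and 5, against 5.90 to 8.13% in replicates 1 to 3. The RNase mutant libraries were at 7.93 to 9.59% and the ΔPAZ libraries at 11.5 to 15.3%.

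A single bin held that difference. The bin chrV:17100001-17200000 on the right arm carries 14 of the 15 annotated rRNA genes of chromosome V, the rrn-4 genes of 5S rRNA, together with sls-1 genes of SL1 RNA. It held 19296, 18432, 13084, 83372 and 78969.9 RPM in the 5 null libraries and 9949.7, 9732 and 15312 RPM in the RNase mutant. It held 72664, 102591 and 86824 RPM in ΔPAZ, against 17798, 13388, 7190.0, 179063 and 69312 RPM in wild type. Replicates 4 and 5 of null and wild type and all 3 ΔPAZ libraries were high, and the remaining libraries were low, and all null values lay within the wild type range. No contrast against wild type called the bin (log2 fold change −0.43 ± 0.70, edgeR adjusted p = 0.662 for the null, log2 fold change −2.30 ± 0.90, edgeR adjusted p = 0.0543 for the RNase mutant, log2 fold change 0.61 ± 0.80, edgeR adjusted p = 0.602 for ΔPAZ) at the main scaling. It passed in 4 of 15 alternatives in the RNase mutant, and in 3 of 15 in ΔPAZ, where the log2 fold change reached 2.77 with replicates 1 to 3 only. With replicates 1 to 3 alone, the ratio of mean RPM to wild type was 1.32 in the null, 0.912 in the RNase mutant and 6.83 in ΔPAZ. With replicates 4 and 5 alone, the null was at 0.654 of wild type. The labels do not say what sets replicates 4 and 5 apart, and for ΔPAZ such a difference and the genotype cannot be told apart.

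Summed over the right arm, reads were therefore ruled by 1 bin. The right arm held 39103, 39917, 34627, 104248 and 100371 RPM in the null and 37920, 35564 and 43659 RPM in the RNase mutant. It held 88241, 115105 and 104221 RPM in ΔPAZ, against 35665, 37627, 23516, 199348 and 96392 RPM in wild type. Its ratio of means to wild type was 0.811 in the null, 0.497 in the RNase mutant and 1.31 in ΔPAZ. Without the 2 bins that hold rRNA genes, the same ratios were 0.992, 1.30 and 0.720. The right arm then held 19542 to 21295 RPM in the null, 25711 to 28216 RPM in the RNase mutant and 12408 to 17278 RPM in ΔPAZ, against 16199 to 26763 RPM in wild type, and each mutant overlapped wild type. The direction of the right arm in the RNase mutant and in ΔPAZ thus turned on whether the 5S bin was counted.

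The left arm and the centre hold no annotated rRNA gene. The left arm held 19155, 20012, 19309, 22593 and 24062 RPM in the null and 17820, 15787 and 20036 RPM in the RNase mutant. It held 10103, 11581 and 13058 RPM in ΔPAZ, against 14174, 16744, 10193, 18348 and 20530 RPM in wild type. Null libraries were mostly above and ΔPAZ libraries mostly below wild type, with overlap in both cases. The ratios of means were 1.31 in the null, 1.12 in the RNase mutant and 0.724 in ΔPAZ. The median left arm bin was lower in each mutant, at 98.2, 112 and 101 RPM in that order, against 157 RPM in wild type. The higher null sum was thus not a rise of the typical bin. It includes the bin chrV:200001-300000, described below, at a mean of 2951 RPM in the null, against 105 RPM in wild type. The centre held 21259, 23332, 20159, 25837 and 25679 RPM in the null and 32978, 27993 and 32229 RPM in the RNase mutant. It held 16547, 26535 and 25225 RPM in ΔPAZ, against 25954, 26944, 25247, 26144 and 27308 RPM in wild type. All 3 RNase mutant libraries were above all 5 wild type libraries in the centre (ratio of means 1.18), while the null (0.884) and ΔPAZ (0.865) overlapped wild type. This higher sum was not a rise of the typical bin. The median centre bin was lower in the RNase mutant, at 163 RPM, against 190.0 RPM in wild type, and 14 centre bins were called higher and 14 lower. These sums are descriptions with no test.

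**Figure D1:**
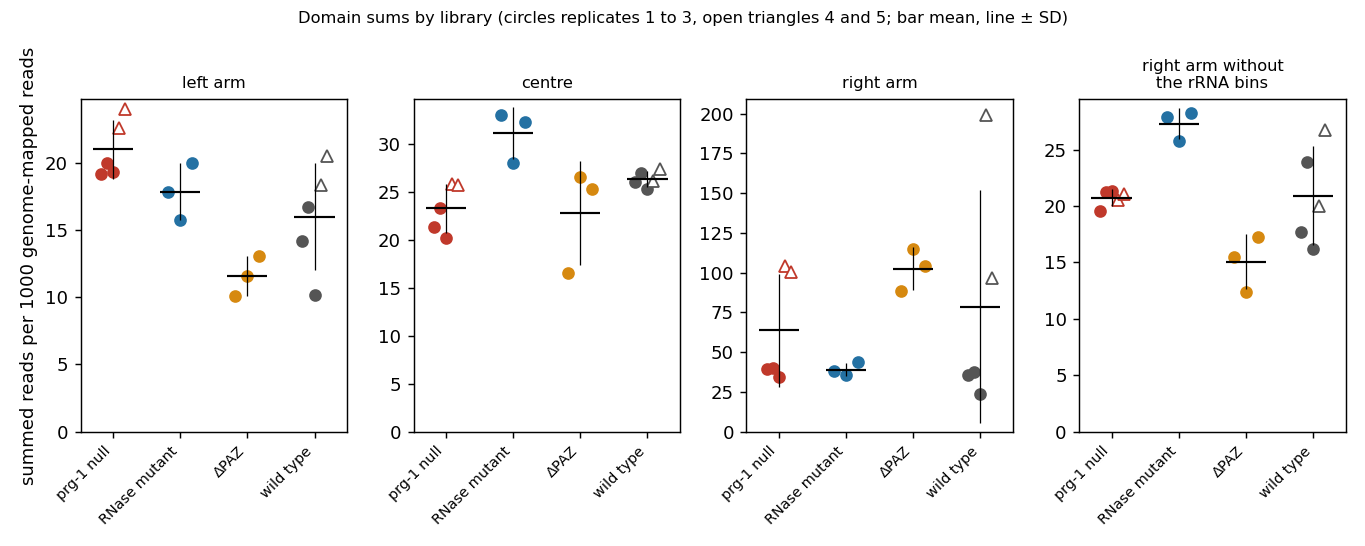
Summed reads of chromosome V per 1000 genome-mapped reads (vertical axes) for each library, by genotype (null, RNase mutant, ΔPAZ and wild type from left to right), for the left arm, the centre, the right arm and the right arm without the rRNA bins. Circles are replicates 1 to 3 and open triangles replicates 4 and 5, with bars for means and lines for SD: the right arm reaches 199348 RPM with the rRNA bins and 28216 RPM without them.

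Reads fell in all 210 bins, and 2 of 3360 counts were 0, but levels were uneven apart from that array too. Without the rRNA bins, the 10 most-read bins of a library held 36.4 to 40.9% of its chromosome V reads in the null. That share was 41.8 to 42.7% in the RNase mutant and 32.1 to 37.4% in ΔPAZ, against 27.5 to 36.3% in wild type. The median bin held 126 RPM in the null, 143 RPM in the RNase mutant and 125 RPM in ΔPAZ, against 176 RPM in wild type. Bins with a mean above 1000 RPM numbered 16 in the null, 17 in the RNase mutant and 6 in ΔPAZ, against 13 in wild type. Bins under 50 RPM numbered 39, 30 and 22 in those mutants, against 17 in wild type. Of these, 5, 1 and 3 lay in the centre in those mutants, against 2 in wild type. In every genotype most were thus on the arms. The null median was 98.2 RPM on the left arm, 146 RPM in the centre and 115 RPM on the right arm, against 157, 190.0 and 189.6 RPM in wild type. Gene content differs between the domains in the annotation: chemoreceptor genes number 5.90 per bin on the left arm, 2.69 in the centre and 5.20 on the right arm, and 74 of the 87 F-box genes lie on the right arm. Across the 210 bins, bins with more chemoreceptor genes held fewer reads (Spearman −0.324 in the null, −0.347 in the RNase mutant, −0.265 in ΔPAZ and −0.305 in wild type). Bins share libraries and neighbours, so these values describe the profile only.

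**Figure D2:**
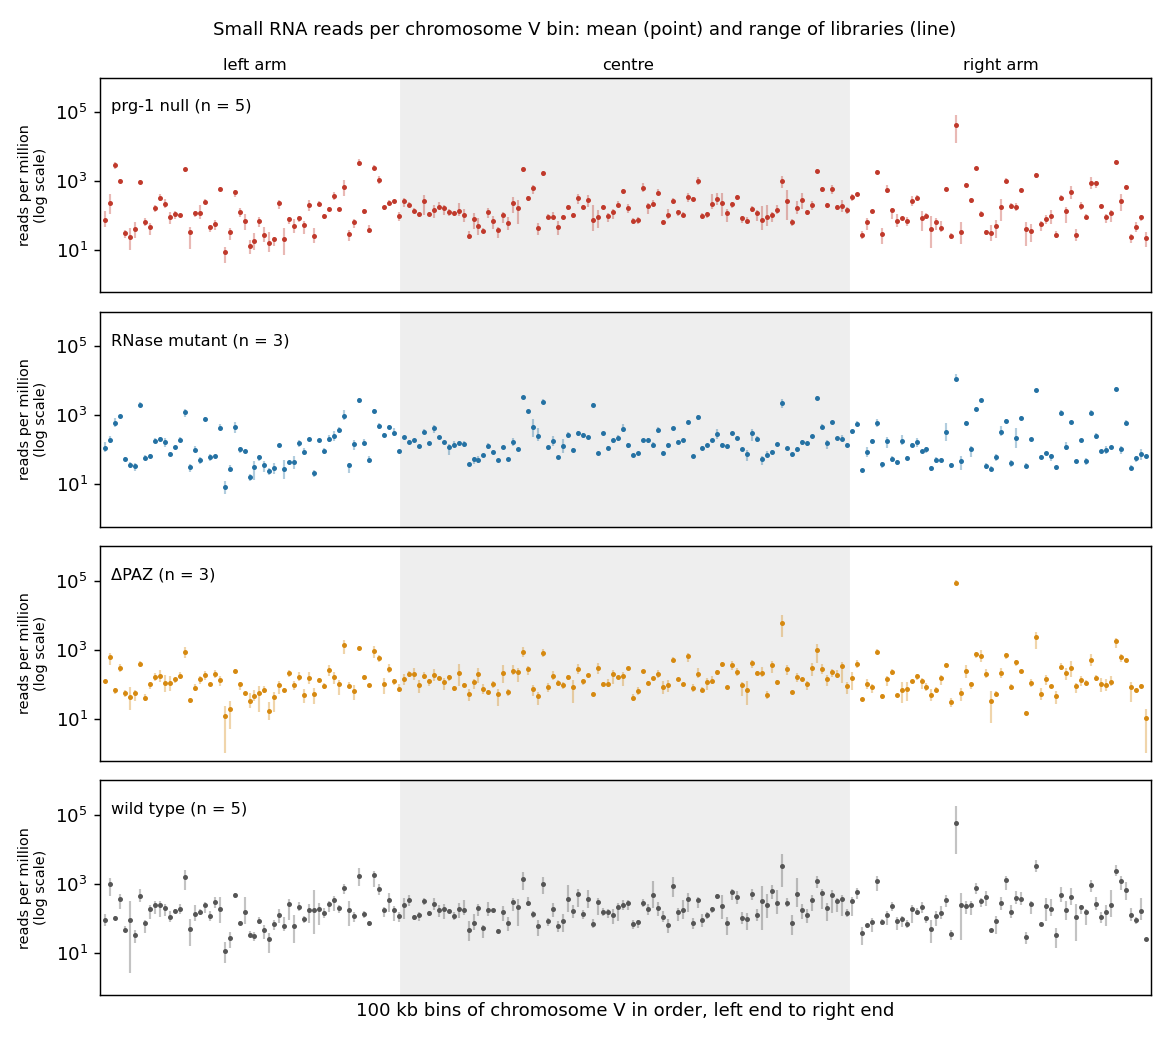
Mean RPM (points, log axis) and the range over libraries (lines) in each of the 210 bins of chromosome V, in order along the chromosome, for the null, the RNase mutant, ΔPAZ and wild type from top to bottom, with the centre shaded. A range that reaches a count of 0 is drawn from 1 RPM. Most bins lie near the median of 125 to 176 RPM, and the isolated highest point on the right arm is the 5S bin.

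Between the null and wild type, males differed at many places along the chromosome, with both rises and falls on each arm and in the centre. Of the 210 bins, 25 were higher and 62 lower in the null, tested over all bins with edgeR's quasi-likelihood test at a Benjamini-Hochberg adjusted p under 0.05. That is 41.4% of the chromosome's bins, beside 40.3% of all bins (12.0% higher and 28.2% lower), so the share was near that of the genome. Calls split into 8 higher and 19 lower on the left arm, 8 and 23 in the centre, and 9 and 20 on the right arm. The balance depended on library scaling: the median log2 fold change of the chromosome was −0.31 (−0.29 over all bins) when scaled to genome-mapped reads, and −0.00 with TMM factors, where 46 bins were higher and 36 lower. Values below are scaled to genome-mapped reads.

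The largest rise lay near the left end. The bin chrV:200001-300000 holds npr-5 (a neuropeptide receptor), nlp-70 (a neuropeptide-like gene), the chemoreceptor genes srh-78, srh-80 and str-121, and 12 other protein-coding genes. Its level was 2282, 2752, 2758, 3449 and 3512 RPM in the null and 573, 459 and 823 RPM in the RNase mutant. It was at 50.4, 72.3 and 79.6 RPM in ΔPAZ, against 120.3, 98.4, 113, 90.8 and 104 RPM in wild type. Null libraries formed the top level and RNase mutant libraries a middle one, each without overlap with any other genotype, and the ΔPAZ libraries lay just below wild type. It rose in the null (log2 fold change 4.81 ± 0.26, edgeR adjusted p = 6.52e-12) and in the RNase mutant (log2 fold change 2.55 ± 0.25, edgeR adjusted p = 1.00e-07) and was not called in ΔPAZ (log2 fold change −0.62 ± 0.28, edgeR adjusted p = 0.112). The RNase mutant was in turn below the null (log2 fold change −2.26 ± 0.28, edgeR adjusted p = 2.46e-06). The bin to its left, chrV:100001-200000, with rps-27 (a ribosomal protein) and cul-3 (a ubiquitin ligase scaffold), fell in the null to 235 ± 116 RPM, against 1002 ± 371 RPM in wild type (SD, n = 5 each; log2 fold change −2.09). The bin to its right, chrV:300001-400000, with wago-10 (an Argonaute) and atg-9 (an autophagy membrane protein), rose in the null to 995 ± 106 RPM, against 367 ± 142 RPM in wild type (log2 fold change 1.44). The RNase mutant moved the same way at both neighbours. It was at 192 ± 46.1 RPM in the left one (log2 fold change −2.38, edgeR adjusted p = 0.000141). In the right one it was at 987 ± 82.7 RPM (log2 fold change 1.43, edgeR adjusted p = 0.000473). Neither neighbour was called in ΔPAZ (edgeR adjusted p = 0.184 and 0.430).

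Other rises in the null were smaller. In the bin chrV:11800001-11900000, which holds hmp-1 (alpha-catenin) and pyc-1 (pyruvate carboxylase), the null libraries were at 285, 309.7, 313, 356 and 298 RPM and the RNase mutant at 72.6, 63.1 and 64.4 RPM. ΔPAZ was at 60.5, 69.3 and 98.5 RPM, against 96.5, 51.1, 49.5, 101 and 68.0 RPM in wild type. The 5 null libraries stood above every other library, and the other genotypes overlapped. The rise was called in the null (log2 fold change 2.10 ± 0.24, edgeR adjusted p = 3.70e-07) and not in the RNase mutant (log2 fold change −0.13 ± 0.27, edgeR adjusted p = 0.758), and the direct contrast put the RNase mutant below the null (log2 fold change −2.22 ± 0.29, edgeR adjusted p = 5.17e-06). Likewise chrV:15700001-15800000, a bin of str chemoreceptor and nhr nuclear receptor genes, rose to 563 ± 142 RPM in the null, against 129 ± 38.5 RPM in wild type (log2 fold change 2.12 ± 0.28, edgeR adjusted p = 2.18e-06). The bin chrV:19900001-20000000, with chk-2 (a meiotic checkpoint kinase) and fars-2 (a mitochondrial phenylalanyl-tRNA synthetase), rose to 856 ± 121 RPM in the null, against 256 ± 103 RPM in wild type (log2 fold change 1.74 ± 0.25, edgeR adjusted p = 6.49e-06). In both, the RNase mutant was below the null (log2 fold change −1.68 and −1.81).

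Falls in the null included bins that became among the quietest of the chromosome. In chrV:17700001-17800000, with fat-5 (a fatty acid desaturase) and pgp-9 (an ABC transporter), the null libraries were at 36.3, 37.7, 27.5, 38.1 and 32.6 RPM and the RNase mutant at 35.4, 28.3 and 42.0 RPM. ΔPAZ was at 154, 157 and 282 RPM, against 256, 625, 236, 459 and 493 RPM in wild type. Null and RNase mutant libraries lay at one low level below all ΔPAZ and wild type libraries. The fall was −3.59 in the null (edgeR adjusted p = 4.40e-09) and −3.55 in the RNase mutant (edgeR adjusted p = 1.84e-07), both on the log2 scale. A smaller fall was called in ΔPAZ (log2 fold change −1.06 ± 0.32, edgeR adjusted p = 0.0411), and it was lost in 10 of 15 alternatives. In chrV:13400001-13500000, which holds mes-4 (a germline histone methyltransferase), the null was at 117, 92.8, 65.5, 114 and 123 RPM and the RNase mutant at 78.4, 84.9 and 101 RPM. ΔPAZ was at 217, 349.7 and 483 RPM, against 454, 925, 354, 654 and 732 RPM in wild type. Again null and RNase mutant were below all others (log2 fold change −2.61 ± 0.28, edgeR adjusted p = 1.71e-07 for the null, log2 fold change −2.83 ± 0.35, edgeR adjusted p = 2.09e-06 for the RNase mutant). The bin chrV:2200001-2300000, dense in nhr nuclear receptor and cyp-33C cytochrome P450 genes, fell to 56.4 ± 14.0 RPM in the null and 65.4 ± 4.70 RPM in the RNase mutant, against 306 ± 97.6 RPM in wild type (log2 fold change −2.43 and −2.22). The null also fell at chrV:17200001-17300000 and chrV:4200001-4300000, where the wild type libraries spread widely. The first was at 14.8 to 63.8 RPM in the null, against 559, 54.3, 519.6, 24.3 and 37.9 RPM in wild type. The second was at 16.2 to 43.9 RPM in the null, against 659.9, 34.4, 46.6, 83.2 and 40.8 RPM in wild type. Each call passed in 17 of 18 alternatives and was lost with replicates 4 and 5 alone (edgeR adjusted p = 0.158 and 0.066). Without wild type replicate 1 the log2 fold change of the second was −0.95.

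**Figure D3:**
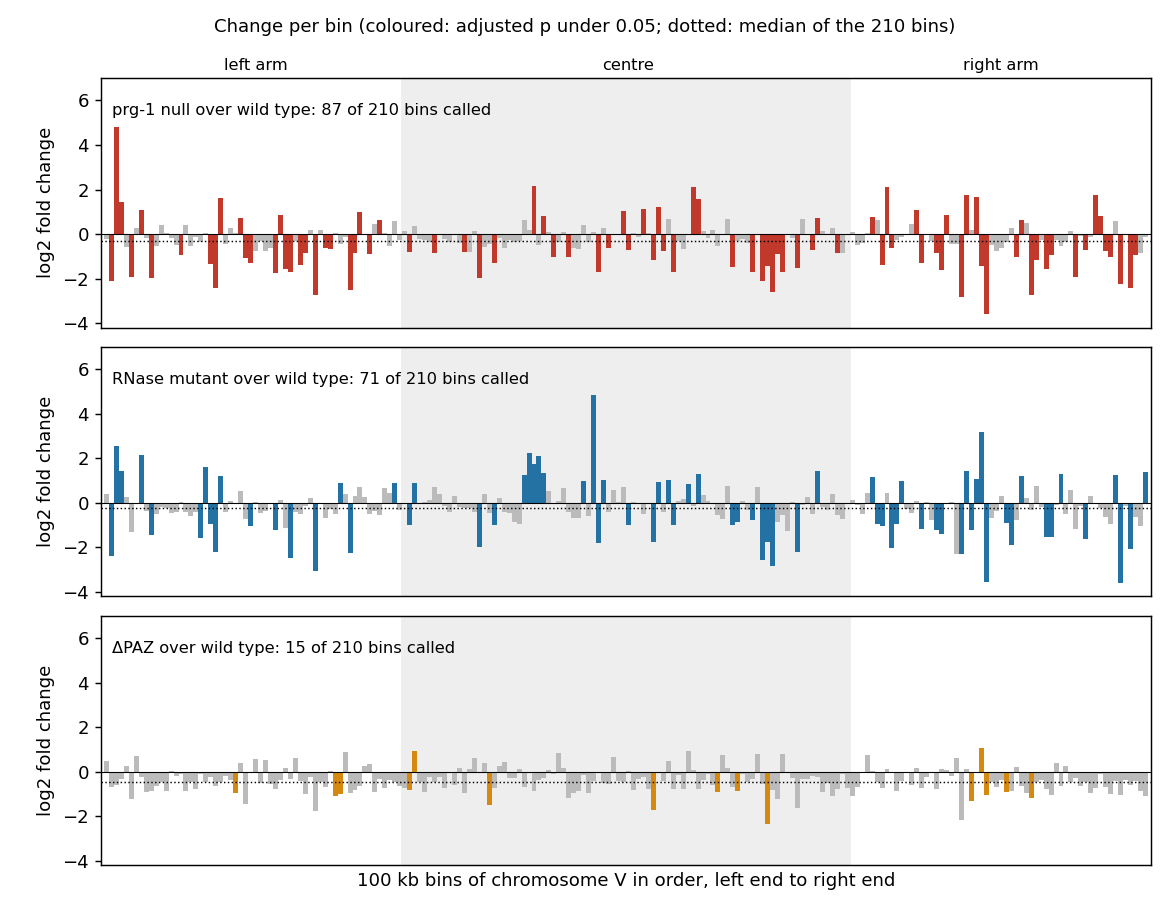
Log2 fold change (vertical axis) of each of the 210 bins in order along chromosome V for the null, the RNase mutant and ΔPAZ over wild type from top to bottom, coloured where the edgeR adjusted p was under 0.05, with the chromosome's median dotted and the centre shaded. Called bins number 87, 71 and 15, and in each panel they lie on both arms and in the centre.

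The RNase mutant also showed rises and falls in all 3 domains, and its 2 largest rises lay in the centre and on the right arm. Of the 210 bins, 30 were higher and 41 lower than in wild type, 33.8% of the chromosome beside 31.0% of all bins (14.4% higher and 16.6% lower). The left arm had 7 higher and 10 lower, the centre 14 and 14, and the right arm 9 and 17. With TMM factors the chromosome had 42 higher and 39 lower. The median log2 fold change of −0.23 (−0.12 over all bins) was −0.10 with TMM factors.

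At chrV:9800001-9900000, a bin of sru chemoreceptor genes that also holds str-2 (a chemoreceptor of the AWC neuron) and lsy-12 (a histone acetyltransferase), the null was at 45.5, 199.5, 54.2, 38.6 and 35.3 RPM and the RNase mutant at 1943, 1974 and 2237 RPM. ΔPAZ was at 45.4, 57.3 and 56.6 RPM, against 67.3, 62.4, 97.1, 74.2 and 53.4 RPM in wild type. The 3 RNase mutant libraries stood far above all other libraries, and the other genotypes overlapped, with null replicate 2 above the rest. The rise was called against wild type (log2 fold change 4.86 ± 0.43, edgeR adjusted p = 3.77e-08) and against the null (log2 fold change 4.78 ± 0.43, edgeR adjusted p = 2.46e-08). On the right arm, chrV:17600001-17700000 holds dgat-2 (an acyltransferase of fat synthesis), srz and str chemoreceptor genes, F-box genes and 21 pseudogenes. Its level was 127, 133, 89.1, 101 and 124 RPM in the null and 2776, 2907 and 2700.0 RPM in the RNase mutant. It was at 587, 425 and 956 RPM in ΔPAZ, against 328, 389, 216, 246 and 382 RPM in wild type. The genotypes did not overlap, with the RNase mutant highest, ΔPAZ next, then wild type and the null lowest. It rose in the RNase mutant (log2 fold change 3.16 ± 0.27, edgeR adjusted p = 3.00e-08) and in ΔPAZ (log2 fold change 1.07 ± 0.27, edgeR adjusted p = 0.0229), and fell in the null (log2 fold change −1.45 ± 0.24, edgeR adjusted p = 5.67e-05). This bin adjoins the fat-5 bin, which fell in the RNase mutant as well as in the null.

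Among the other rises in the RNase mutant, chrV:700001-800000 holds icl-1 (a glyoxylate cycle enzyme), sti-1 (a co-chaperone) and srbc and str chemoreceptor genes. It was at 961 ± 106 RPM in the null and 2041 ± 357 RPM in the RNase mutant, against 454 ± 181 RPM in wild type (log2 fold change 1.08 and 2.17). The bin chrV:2000001-2100000, with nhr-86 and comt genes, was at 688, 756 and 881 RPM in the RNase mutant, against 293, 307, 145, 230.3 and 282 RPM in wild type, without overlap (log2 fold change 1.62 ± 0.25, edgeR adjusted p = 3.17e-05), while the null did not pass the test (log2 fold change 0.02 ± 0.22, edgeR adjusted p = 0.952). The largest fall was at chrV:20400001-20500000, which holds rpl-2 (a ribosomal protein) and dhcr-7 (a sterol reductase). It fell to 112, 74.0 and 126 RPM in the RNase mutant, against 951, 1440.2, 646, 1478 and 1708 RPM in wild type (log2 fold change −3.58 ± 0.43, edgeR adjusted p = 1.72e-06), and to 265 ± 133 RPM in the null, a log2 fold change of −2.23. The RNase mutant was below the null at this bin too (log2 fold change −1.35 ± 0.39, edgeR adjusted p = 0.0138).

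ΔPAZ males differed from wild type at few bins after adjustment. There were 2 bins higher and 13 lower (7 and 71 at an unadjusted edgeR p under 0.05), 7.14% of the chromosome beside 10.3% of all bins (0.994% higher and 9.34% lower). The median log2 fold change was −0.45, beside −0.43 over all bins. With TMM factors it was −0.04, with 7 bins higher and 0 lower (26 and 19 at an unadjusted edgeR p under 0.05), and DESeq2 called 10 higher and 3 lower. Leaving out 1 library gave 1 call (without ΔPAZ replicate 1 or 2) to 70 calls (without wild type replicate 3), and 0 of the 10 ΔPAZ calls that the naming rule took passed under every alternative. The 2 bins higher were chrV:17600001-17700000, given above, and chrV:6200001-6300000, with rme-1 (an endocytic recycling protein), at 134, 188 and 288 RPM in ΔPAZ, against 127, 117, 90.3, 105 and 99.1 RPM in wild type (log2 fold change 0.93 ± 0.25, edgeR adjusted p = 0.0292). Without ΔPAZ replicate 3 the edgeR adjusted p was 0.0741 in the first and 0.102 in the second. The bin with the largest fall was chrV:13300001-13400000, at 40.3, 63.3 and 37.7 RPM in ΔPAZ, against 368, 102, 503, 134 and 101 RPM in wild type, where wild type replicates 1 and 3 were high (log2 fold change −2.35 ± 0.57, edgeR adjusted p = 0.0209, and 0.087 with TMM factors). The bin chrV:17400001-17500000, with the remaining annotated 5S gene, rrn-4.15, and 23 pseudogenes, was at 265, 235, 249, 324 and 321 RPM in the null and 61.6, 121 and 132 RPM in the RNase mutant. It was at 70.6, 106 and 118 RPM in ΔPAZ, against 191, 307, 127, 284 and 317 RPM in wild type. ΔPAZ lay below all wild type libraries there (log2 fold change −1.30 ± 0.33, edgeR adjusted p = 0.0229), the RNase mutant overlapped at its top (log2 fold change −1.23 ± 0.32, edgeR adjusted p = 0.00532, and 0.0513 without RNase mutant replicate 1), and the null did not pass the test (log2 fold change 0.18 ± 0.26, edgeR adjusted p = 0.61). This order is unlike that of the 5S array, where the ΔPAZ mean was the highest.

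Between mutants, 39 bins differed between the RNase mutant and the null, 24 higher and 15 lower in the RNase mutant, 18.6% of the chromosome beside 21.2% of all bins (13.5% higher and 7.65% lower). With TMM factors the split turned to 20 higher and 29 lower. On the right arm, chrV:18600001-18700000, with the egas genes of degenerin channels, was at 16.9, 30.2, 37.1, 55.5 and 45.7 RPM in the null and 214, 186 and 217 RPM in the RNase mutant. It was at 106, 145 and 81.7 RPM in ΔPAZ, against 234, 289, 136, 294 and 314 RPM in wild type. Null libraries lay below all others, and the RNase mutant lay within the wild type range. ΔPAZ was called lower than wild type (log2 fold change −1.20 ± 0.34, edgeR adjusted p = 0.0364), a call lost in 11 of 15 alternatives. The fall in the null was called (log2 fold change −2.76 ± 0.30, edgeR adjusted p = 1.90e-07) and the RNase mutant did not pass the test against wild type (log2 fold change −0.30 ± 0.32, edgeR adjusted p = 0.507), with the direct difference at 2.46 (edgeR adjusted p = 4.96e-06). The RNase mutant was instead below the null at chrV:18200001-18300000, with clec-247 and clec-249 (C-type lectins) and skr-6. It was at 31.4, 50.8 and 41.2 RPM there, against null values of 232, 159, 161, 170.2 and 214 RPM (log2 fold change −2.19 ± 0.33, edgeR adjusted p = 3.28e-05).

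ΔPAZ differed from the null at 84 bins, 38 higher and 46 lower in ΔPAZ, 40.0% of the chromosome beside 39.7% of all bins (17.5% higher and 22.2% lower), and with TMM factors at 49 higher and 51 lower. The npr-5 bin chrV:200001-300000 gave the largest difference (log2 fold change −5.43 ± 0.34, edgeR adjusted p = 1.39e-10). At chrV:8600001-8700000, described with its neighbours below, ΔPAZ was at 45.4, 82.9 and 95.3 RPM, against null values of 428, 529, 592, 771 and 798 RPM (log2 fold change −3.03 ± 0.37, edgeR adjusted p = 1.79e-06). The fat-5 bin was higher in ΔPAZ (log2 fold change 2.53 ± 0.31, edgeR adjusted p = 2.07e-06), as was the mes-4 bin (log2 fold change 1.78 ± 0.30, edgeR adjusted p = 9.07e-05). The bin chrV:13600001-13700000, with rde-12 (a helicase required for RNA interference), was the second most-read bin of chromosome V in wild type. It held 2263, 10179 and 4797 RPM in ΔPAZ, against 887, 1119, 616, 1009 and 1378 RPM in the null, without overlap (log2 fold change 2.52 ± 0.53, edgeR adjusted p = 0.00074), and wild type was at 4438, 2799, 7099, 1237 and 797 RPM.

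**Figure D4:**
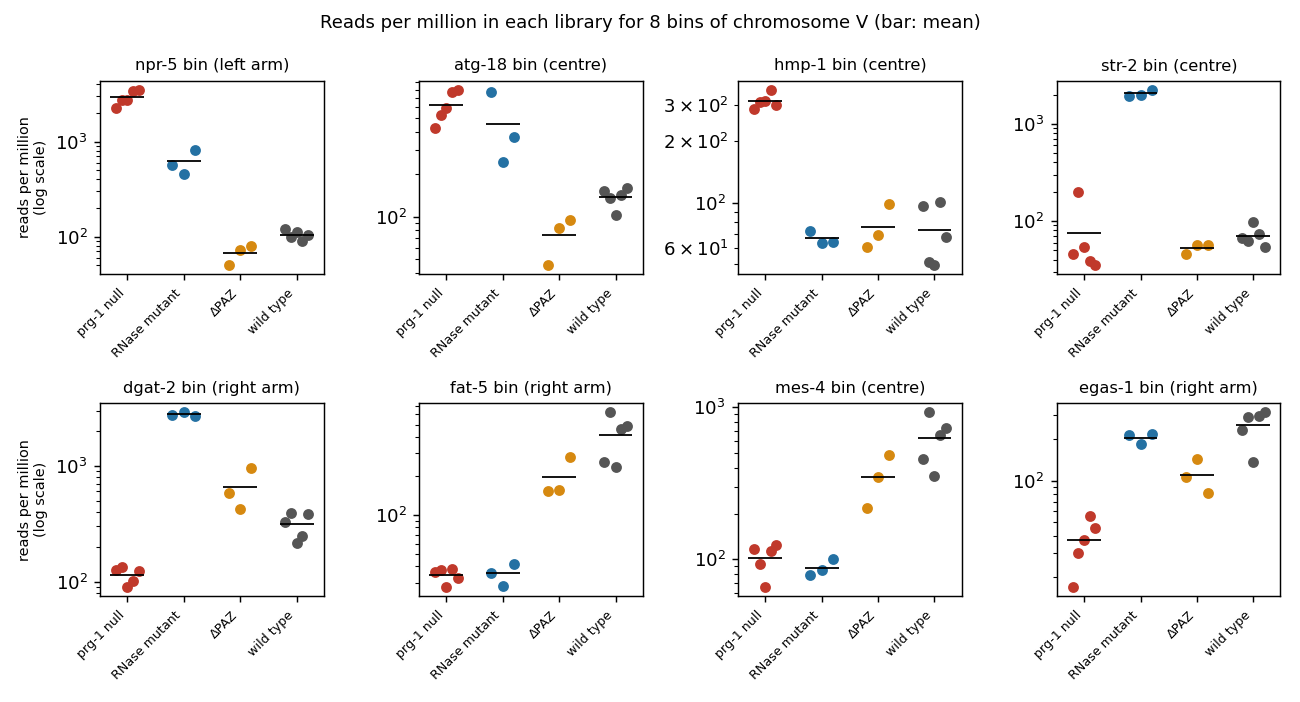
RPM (log axes) in each library for 8 bins, by genotype (null, RNase mutant, ΔPAZ and wild type from left to right), with bars for means. Panels are named by a gene in the bin: the npr-5, atg-18 and hmp-1 bins are highest in the null, with the RNase mutant overlapping it at atg-18, the str-2 and dgat-2 bins are highest in the RNase mutant, the fat-5 and mes-4 bins are low in both the null and the RNase mutant, and the egas-1 bin is lowest in the null.

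Changes rarely extended over neighbours. Across the 209 pairs of adjacent bins, the Pearson correlation of log2 fold changes was −0.02 in the null, −0.06 in the RNase mutant and −0.10 in ΔPAZ, given as a description. Adjacent bins that were both called moved the same way in 19 pairs and opposite ways in 18 pairs in the null, and in 15 and 16 pairs in the RNase mutant. The longest run of higher bins was 5 bins in the RNase mutant and 2 in the null. For lower bins the longest run was 5 bins in the null and 3 in the RNase mutant. These runs were singled out after their values were seen.

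The run higher in the RNase mutant covered 8400001 to 8900000 in the centre. Its first bin, chrV:8400001-8500000, with pos-1 (an RNA-binding protein of the early embryo), was at 3691, 2932 and 3476 RPM in the RNase mutant, against 924, 1528, 679.9, 1699 and 2202 RPM in wild type (log2 fold change 1.26 ± 0.32, edgeR adjusted p = 0.00488). The next, chrV:8500001-8600000, holds the core histone genes his-5 to his-8 and his-39, and the microRNAs mir-357 and mir-358. It was at 311, 361, 357, 298 and 275 RPM in the null and 1431, 1452 and 1189.9 RPM in the RNase mutant. It was at 307, 181 and 326 RPM in ΔPAZ, against 226, 425, 285, 239 and 252 RPM in wild type, with the 3 RNase mutant libraries above all others (log2 fold change 2.25 ± 0.25, edgeR adjusted p = 4.16e-07). The third, chrV:8600001-8700000, with atg-18 (an autophagy protein) and smk-1 (a phosphatase regulator), held 428, 529, 592, 771 and 798 RPM in the null and 763, 244 and 367 RPM in the RNase mutant, against 151, 135, 102, 142 and 159 RPM in wild type, so both mutants lay above it (log2 fold change 2.18 ± 0.29, edgeR adjusted p = 2.38e-06 and log2 fold change 1.73 ± 0.31, edgeR adjusted p = 0.000172). The fourth, chrV:8700001-8800000, with glr-5 (a glutamate receptor), was at 178, 182 and 417 RPM in the RNase mutant, against 41.1, 91.4, 31.1, 76.8 and 59.3 RPM in wild type (log2 fold change 2.10 ± 0.37, edgeR adjusted p = 0.000169), and the null did not pass the test (log2 fold change −0.48 ± 0.34, edgeR adjusted p = 0.277). The last, chrV:8800001-8900000, with 14 annotated histone genes (his-17, his-18 and copies of his-49 to his-52), was at 1593, 1438, 1692, 1767 and 2022 RPM in the null and 2391, 2089 and 2900.4 RPM in the RNase mutant, against 591, 997, 513, 1135 and 1577 RPM in wild type (log2 fold change 0.82 ± 0.28, edgeR adjusted p = 0.0218 and log2 fold change 1.35 ± 0.31, edgeR adjusted p = 0.00198). Of the 5 bins, the null passed the test at the third and the last, and with TMM factors at the first as well (edgeR adjusted p = 0.000851). The RNase mutant passed at all 5 with TMM factors too.

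The run lower in the null covered 13200001 to 13700000. Its mes-4 bin, given above, had groups that did not overlap, and in the other 4 bins the null overlapped wild type. At chrV:13200001-13300000 the null was at 195, 45.8, 47.6, 44.9 and 37.5 RPM, against 466, 131, 83.5, 852 and 45.7 RPM in wild type (log2 fold change −2.10 ± 0.61, edgeR adjusted p = 0.00856), where wild type replicates 1 and 4 were high. At chrV:13300001-13400000 it was at 199.9, 74.8, 51.1, 59.7 and 62.0 RPM (log2 fold change −1.44 ± 0.44, edgeR adjusted p = 0.0113), against the wild type values above. At chrV:13500001-13600000 it was at 147 ± 35.6 RPM, against 272 ± 219 RPM in wild type (log2 fold change −0.88 ± 0.34, edgeR adjusted p = 0.042). The rde-12 bin at its end was called lower in the null over 5 against 5 libraries (log2 fold change −1.71 ± 0.48, edgeR adjusted p = 0.00661), and with replicates 4 and 5 alone its log2 fold change was 0.23. With TMM factors the run's bins at chrV:13300001-13400000 and chrV:13500001-13600000 missed the threshold (edgeR adjusted p = 0.0561 and 0.201). The RNase mutant was lower too at chrV:13200001-13300000 (log2 fold change −2.56, edgeR adjusted p = 0.0137, and 0.0644 without RNase mutant replicate 1). It was also lower at chrV:13300001-13400000 (log2 fold change −1.76, edgeR adjusted p = 0.0153) and at the mes-4 bin. At chrV:13500001-13600000 and the rde-12 bin it did not pass (edgeR adjusted p = 0.0983 and 0.475).

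**Figure D5:**
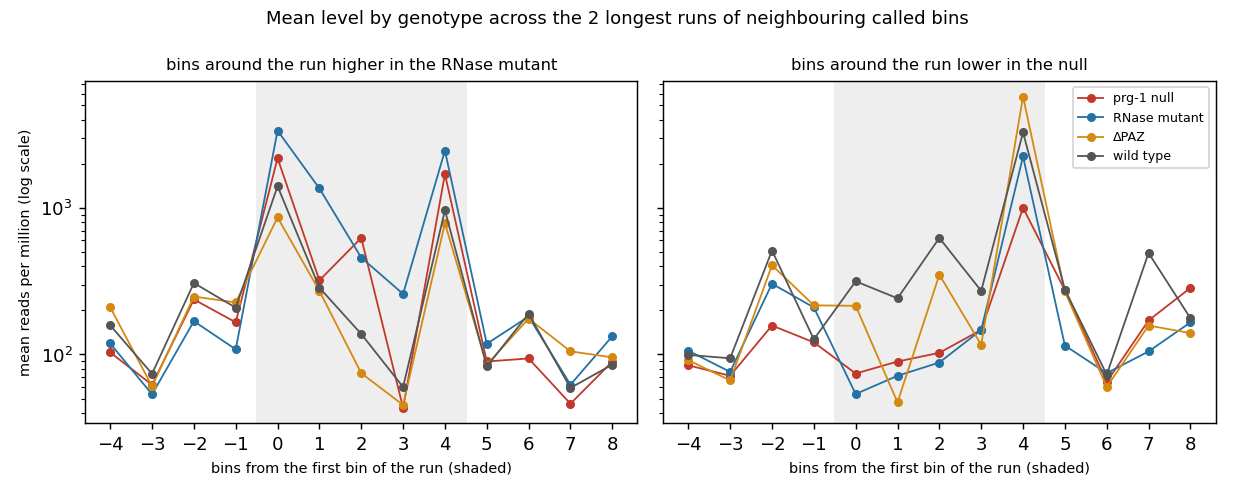
Mean RPM (log axis) by genotype in the 2 runs of 5 neighbouring called bins (shaded) and the 4 bins on each side, counted from the first bin of the run. In the left panel the RNase mutant is above wild type in all 5 shaded bins, with the null higher still in the third, and in the right panel the null is below wild type in all 5.

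Histone genes, which encode the proteins that package DNA, lie in 5 bins. In the RNase mutant 3 were higher and 1 lower, 80.0% beside 31.0% of all bins, and in the null 1 was higher and 1 lower, 40.0% beside 40.3%, with the same counts under TMM factors. At an unadjusted edgeR p under 0.05 the null had 3 of the 5, beside 109 of the 210 bins of the chromosome. Set directly against the null, the RNase mutant was higher at 2 of the 5 and lower at 0 (2 at an unadjusted edgeR p under 0.05, DESeq2 also 2), beside 21.2% of all bins. In ΔPAZ edgeR called 0 of the 5, beside 10.3% of all bins, and DESeq2 called 0. At an unadjusted edgeR p under 0.05 ΔPAZ had 2 of the 5, beside 78 of the 210 bins of the chromosome. Besides the 2 in the run, the bin chrV:16000001-16100000 on the right arm, with 4 histone genes, was at 277, 147 and 135 RPM in the RNase mutant, against 108, 93.0, 56.3, 119 and 106 RPM in wild type (log2 fold change 0.96 ± 0.33, edgeR adjusted p = 0.0318). The bin chrV:12600001-12700000, with 1 histone gene, fell to 217 ± 36.4 RPM in the null and 302 ± 23.8 RPM in the RNase mutant, against 601 ± 153 RPM in wild type (log2 fold change −1.47 ± 0.23, edgeR adjusted p = 1.83e-05 and log2 fold change −0.99 ± 0.26, edgeR adjusted p = 0.00617). The median log2 fold change of the 5 bins in the RNase mutant was 0.96, beside −0.12 over all bins.

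The 28 microRNA genes of chromosome V lie in 22 bins. Of these, 2 were higher and 5 lower in the null, 31.8% beside 40.3% of all bins, and 4 higher and 2 lower in the RNase mutant, 27.3% beside 31.0%. In ΔPAZ edgeR called 0 of the 22, beside 10.3% of all bins, and DESeq2 called 1. At an unadjusted edgeR p under 0.05 ΔPAZ had 7 of the 22, beside 78 of the 210 bins of the chromosome. Median log2 fold changes were −0.40 in the null, 0.13 in the RNase mutant and −0.38 in ΔPAZ. With TMM factors the null had 5 higher and 2 lower, so the balance of its calls depended on the scaling. The bin chrV:14300001-14400000 holds mir-48 and mir-241, let-7 family members that time larval development. It was at 1955, 2111, 2259, 1899 and 1689.8 RPM in the null and 3168, 2771 and 3750.3 RPM in the RNase mutant. It was at 1411, 408 and 1166 RPM in ΔPAZ, against 969, 1746, 1019, 757 and 1442 RPM in wild type. All RNase mutant libraries were above wild type (log2 fold change 1.44 ± 0.33, edgeR adjusted p = 0.00181), and the null overlapped it (log2 fold change 0.74 ± 0.29, edgeR adjusted p = 0.0486, lost in 11 of 18 alternatives). The bin of lsy-6 (a microRNA of left-right asymmetry in taste neurons), chrV:10600001-10700000, passed no test against wild type, at 71.1 ± 11.5 RPM in the null, 71.5 ± 3.51 RPM in the RNase mutant and 39.1 ± 9.87 RPM in ΔPAZ, against 69.5 ± 18.2 RPM in wild type, except in 2 of 15 alternatives in ΔPAZ. The mir-259 bin, chrV:10500001-10600000, was lower in the null (log2 fold change −0.73 ± 0.23, edgeR adjusted p = 0.0136, not with TMM factors) and in the RNase mutant (log2 fold change −0.99 ± 0.27, edgeR adjusted p = 0.00775, and 0.0546 without RNase mutant replicate 1). The bin of mir-250 and mir-61, chrV:11700001-11800000, was higher in the RNase mutant (log2 fold change 0.83 ± 0.30, edgeR adjusted p = 0.0404, lost in 5 of 15 alternatives). In ΔPAZ it missed the threshold (log2 fold change 0.90 ± 0.30, edgeR adjusted p = 0.0561) and passed in 8 of 15 alternatives. Neither the mir-87 bin, chrV:12000001-12100000, nor the mir-253 bin, chrV:5700001-5800000, passed against wild type in any mutant at the main scaling. The mir-253 bin passed in the null in 2 of 18 alternatives and in the RNase mutant in 3 of 15, and the mir-87 bin in the null in 1 of 18. The mir-255 bin, chrV:5400001-5500000, which also holds snpc-1.3 (a male factor for transcribing piRNA genes), was among the most-read bins and passed none of the 3 tests either, except in 2 of 18 alternatives in the null and 2 of 15 in ΔPAZ. It was at 2273, 2122, 2147, 2697 and 2935 RPM in the null and 1526, 1393 and 1210.4 RPM in the RNase mutant. It was at 575, 906 and 1298 RPM in ΔPAZ, against 1378, 2232, 835, 2054 and 2360.4 RPM in wild type. The bin chrV:18700001-18800000, with mir-262 and 7 C-type lectin genes listed by name, was at 1242, 1634, 1778, 1347 and 1314 RPM in the null and 5603, 5747 and 5128 RPM in the RNase mutant, against 2288, 4353, 2195, 2707 and 4789 RPM in wild type, and these lay below and above wild type without overlap. Its fall in the null was called (log2 fold change −1.16 ± 0.31, edgeR adjusted p = 0.00438, and 0.0657 with replicates 1 to 3 alone), the RNase mutant missed the threshold (log2 fold change 0.75 ± 0.34, edgeR adjusted p = 0.0987), and the RNase mutant was above the null (log2 fold change 1.91 ± 0.34, edgeR adjusted p = 0.00021).

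Of 163 bins with at least 1 of 908 chemoreceptor genes, 18 were higher and 50 lower in the null, 41.7% of them beside 40.3% of all bins. In the RNase mutant 20 were higher and 34 lower, 33.1% beside 31.0% of all bins, and in ΔPAZ 2 and 9, 6.75% beside 10.3%. In the null and the RNase mutant the chemoreceptor share was thus near that of all bins. For the other families the share called in the null was 38.6% of 44 bins with F-box genes, 45.2% of 62 with nuclear receptor genes, 36.8% of 38 with C-type lectin genes, 43.5% of 46 with tRNA genes, 35.7% of 42 with snoRNA genes and 40.0% of 15 with snRNA genes. In the RNase mutant the shares were 45.5% for F-box, 25.8% for nuclear receptor, 34.2% for C-type lectin, 34.8% for tRNA, 38.1% for snoRNA and 26.7% for snRNA genes. With TMM factors the null had 33 higher and 29 lower bins among those with chemoreceptor genes, and 46 and 36 over the chromosome. Of the 115 bins with one of 202 annotated piRNA genes, 38.3% were called in the null, 32.2% in the RNase mutant and 6.09% in ΔPAZ. Their median log2 fold changes were −0.33, −0.20 and −0.43, beside −0.31, −0.23 and −0.45 for the whole chromosome.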

How the data were processed

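Small RNA libraries of 16 whole-male samples were grouped by the genotype in their labels. The deposited tables hold, per the file headers, read counts for each library in 100 kb bins of ce11, with the library's genome-mapped total on the first line, and a table of total, genome-mapped and 21U-only read counts. Per the submitters' processing notes, cutadapt 3.7 and FastQC 0.12.0 were used. Neither the aligner nor the rule for multi-mapping reads is given in the sources used here, and both bear on repeated genes such as the 5S array and on gene families. A bin's reads cannot be assigned to a gene or a strand.

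Bin counts were scaled to reads per 1000000 genome-mapped reads (RPM) by the first-line total. All 1006 bins were tested in one fit of the 16 libraries with edgeR 4.0.16 (quasi-likelihood F test) in R 4.3.3. Library size was the genome-mapped total with no scaling factor, bins needed 10 reads or more in 3 or more libraries (all 210 bins of chromosome V passed), and p-values had Benjamini-Hochberg adjustment over all bins. Bins were called at an adjusted p under 0.05. Each standard error is the fold change divided by the root of its F statistic. Genes were placed by their midpoint with Ensembl release 115 of WBcel235, the assembly of ce11. Bins were named by a rule: the 8 largest rises and 8 largest falls called in each of 5 contrasts, the 5 most-read bins in wild type, and every bin with an rRNA gene or one of 11 listed microRNAs. Bins named outside it (the rest of the 2 runs, the neighbour bins and the histone bins) were chosen after their values were seen. The bins, lists and tests were chosen with earlier results of these data known.

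Alternatives were TMM factors, DESeq2 1.42.0, library sizes without the 3 most-read bins, no filter, a replicate block, replicates 1 to 3 only and each library left out. Replicates 4 and 5 only, and a block of replicates 1 to 3 and 4 to 5, were added after seeing the data. Each library was counted as 1 replicate. Any 2 libraries of a genotype differed far beyond counting error (chi-square at least 41.2 times its degrees of freedom). Such a difference cannot show that they came from separate cultures, since technical spread could give it as well.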

Additional observations from a re-analysis of the deposited data

Results flagged for a closer look

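Among 114 groups of 5 libraries (106 at the named bins and 8 of domain sums), 5 had 1 library far from the other 4. The nominal chance rate of 5% takes groups as independent. These groups share libraries and neighbouring bins, so their number was not set against chance. Null replicate 2 was at 199.5 RPM in chrV:9800001-9900000, where the other null libraries were at 35.3 to 54.2 RPM. Null replicate 1 was at 195 RPM in chrV:13200001-13300000 and at 199.9 RPM in the adjoining chrV:13300001-13400000, where the other null libraries were at 37.5 to 47.6 RPM and 51.1 to 74.8 RPM. Wild type replicate 1 was at 659.9 RPM in chrV:4200001-4300000, where the other wild type libraries were at 34.4 to 83.2 RPM. Wild type replicate 3 was at 160.3 RPM in chrV:4600001-4700000, where the others were at 359 to 434 RPM. What set these libraries apart was not tested.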

How the results depend on the processing

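Counts of called bins stayed within 1.5 times the main count under every alternative for the null, for the RNase mutant and for both contrasts with the null. Leaving out 1 library gave 71 to 91, 53 to 79, 26 to 38 and 63 to 83 calls. With TMM factors, the bins behind a count changed more in the null than in the RNase mutant. Of the 87 null calls, 61 were shared with TMM factors and 54 with replicates 4 and 5 only. The RNase mutant shared 67 of its 71 calls with TMM factors. The ΔPAZ count of 15 against wild type was 7 with TMM factors and 8 with the replicate block, and 1 to 70 with 1 library left out. Most of its bins changed as well: of the 15 calls, 2 were shared with TMM factors, 5 with DESeq2 and 3 with the replicate block. Whether the replicate numbers pair the samples was not settled. Same-numbered libraries of null and wild type correlated at 0.0132 to 0.353 in their deviations, and differently numbered ones at −0.487 to 0.420. For ΔPAZ and wild type the same-numbered values went down to −0.318. The replicate block gave 88, 71, 37 and 81 calls in the other contrasts. Of 83 named calls, 62 passed under every alternative: 14 of 20 in the null, 16 of 21 in the RNase mutant, 0 of 10 in ΔPAZ and 16 of 16 in each contrast with the null. Of 28 named results that were not called, 13 were called under at least 1 alternative. The null fall at chrV:13600001-13700000 reversed to 0.23 with replicates 4 and 5 only.

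Domain ratios to wild type moved most on the right arm. Without the rRNA bins the RNase mutant was at 1.30 and ΔPAZ at 0.720, without the most-read bin at 1.29 and 0.717, with replicates 1 to 3 at 1.21 and 3.18, and with library totals free of the 3 most-read bins, in sums without rRNA bins, at 1.29 and 0.814. Leaving out 1 library gave 0.682 to 1.32 in the null, 0.423 to 0.808 in the RNase mutant and 1.11 to 2.12 in ΔPAZ. Scaled to total sequenced reads, the null was at 1.75 on the left arm and 1.21 in the centre, the RNase mutant at 1.47, 1.60 and 0.667 on left arm, centre and right arm, and ΔPAZ at 0.622 on the left arm. On that scale the right arm without rRNA bins was at 1.31 in the null, 1.72 in the RNase mutant and 0.614 in ΔPAZ. With rRNA bins the null right arm was at 1.14 on that scale and 1.17 with replicates 1 to 3, above wild type in both. With replicates 1 to 3 the left arm was at 1.30 in the RNase mutant and 0.845 in ΔPAZ, and without the 3 most-read bins in the totals at 0.826 in ΔPAZ. The cause of these moves was not tested. Sums of the left arm and centre have no rRNA bin to leave out. Counting error was largest in the 2 shallowest libraries, ΔPAZ replicates 1 and 2.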
